A study of Homo sapiens with 64 samples.

Results

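NCI-H295R cells, grown from a human adrenocortical carcinoma and able to make steroids, were given a scrambled RNA in 2 forms, and the libraries of both control groups were compared with each other. The members were taken by their labels: 3 libraries of cells given scrambled siRNA and 3 of cells given scrambled shRNA, 6 of 16 libraries and 24 of 64 lane files. A scrambled RNA is made to match no chosen transcript, so neither group had its nicotinamide nucleotide transhydrogenase gene, NNT, targeted. The siRNA cells were collected 72 h after transfection. For the shRNA cells the labels give no vector, selection or time, and no untreated cells were analysed here. The libraries carry the codes 16-1, 23-5 and 30-11 for siRNA and 18-3, 19-2 and 24-2 for shRNA, and values below are given in that order. No code is shared between both systems, so the form of the RNA and any other difference in culture, selection or handling that goes with it cannot be told apart. The other 10 libraries, from NNT knockdown cells (3 with siRNA-2, 3 with siRNA-3, both 72 h after transfection, and 4 with NNT shRNA), gave a second contrast of siRNA and shRNA that shares no library with the first. Each control library does share its code with a knockdown library of the same delivery system.

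A small interfering RNA is a short synthetic duplex that is carried into the cytoplasm by transfection and loaded into the Argonaute complex, where it acts for days. A short hairpin RNA is transcribed in the cell from a vector, cut by DICER1 and, in microRNA-based vectors, by DROSHA as well, before it reaches the same complex. Some shRNA vectors place the hairpin within sequence of the microRNA precursor MIR30A.

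The libraries held 20148231 to 43992833 gene counts, and 17567 to 18571 genes had a count. Reads in no gene made up 11.3 to 15.2% of the siRNA controls and 13.8 to 14.5% of the shRNA controls. NNT, the knockdown target, was not called different: 353, 296 and 362 CPM (reads of the gene relative to the scaled library total) in the siRNA controls against 381, 317 and 415 CPM in the shRNA controls (log2 fold change -0.14, SE 0.11, edgeR adjusted p = 0.501). Adrenocortical identity genes were expressed in all 6 libraries, NR5A1, the steroidogenic transcription factor, at 382 to 485 CPM and STAR, the cholesterol carrier, at 312 to 515 CPM. Over 11013 genes, the root mean square log2 difference between 2 libraries was 0.22 to 0.315 across groups, 0.224 to 0.252 within the siRNA controls and 0.151 to 0.215 within the shRNA controls. The siRNA library 30-11 lay closest to the shRNA controls, at 0.22 to 0.256.

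The sequences of the hairpin, its mature arms, miR-30c-5p and miR-30e-5p, without MIR30B and MIR30D, are shown because the largest difference lay at this gene. They come from RefSeq on GRCh38.p14, while the reads were aligned to hg19, and capitals mark the mature arms in the precursor and the seed, bases 2 to 8, in the mature forms. MIR30A lies at chr6:71403551-71403621 on the minus strand, within introns of the long non-coding RNA LINC00472.
MIR30A precursor: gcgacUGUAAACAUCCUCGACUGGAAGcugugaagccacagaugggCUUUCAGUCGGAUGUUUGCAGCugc
hsa-miR-30a-5p: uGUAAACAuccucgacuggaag
hsa-miR-30a-3p: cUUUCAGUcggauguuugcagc
hsa-miR-30c-5p: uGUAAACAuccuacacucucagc
hsa-miR-30e-5p: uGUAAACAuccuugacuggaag
The 5p forms of miR-30a, miR-30c and miR-30e share the seed GUAAACA, and the 3p arm of miR-30a has the seed UUUCAGU.

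Reads at MIR30A separated the delivery systems in every library. The shRNA controls held 4759, 2714 and 2708 reads there, and the siRNA controls 0, 0 and 2. The shRNA controls stood at 106, 86.4 and 103 CPM, and their summed reads were 3760-fold above those of the siRNA controls per gene count, with an exact 95% counting interval of 1040 to 31000 (edgeR adjusted p = 4.83e-10). The NNT knockdown libraries split the same way, with 3197 to 5767 reads in the 4 shRNA libraries and 0 to 2 in the 6 siRNA libraries. Here the ratio was 6340, with an interval of 2480 to 23300. These intervals cover counting error only.

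The reads were confined to this row among its relatives in the 6 control libraries. The other 5 MIR30 gene rows (MIR30B, MIR30C1, MIR30C2, MIR30D and MIR30E) summed to 0 counts in them. The host LINC00472 held 71, 95 and 40 raw reads in the siRNA controls and 71, 56 and 38 in the shRNA controls. The gene counts of these libraries were 22517038, 32171558 and 20148231 with siRNA and 43992833, 31273038 and 26122083 with shRNA. Relative to these totals, every siRNA library lay above every shRNA library at LINC00472, the opposite direction to MIR30A. Of 1842 microRNA gene rows, 411 had a count in the 6 libraries and 35 passed the filter on low counts, and MIR30A took 65.7% of all counts on such rows in the shRNA controls. The next row, MIR5047, had 947 counts there and 862 in the siRNA controls. The libraries were made from poly(A)-selected RNA, so these are reads placed at the gene and not a measure of the mature microRNA. Whether they come from a vector was not tested.

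**Figure D1:**
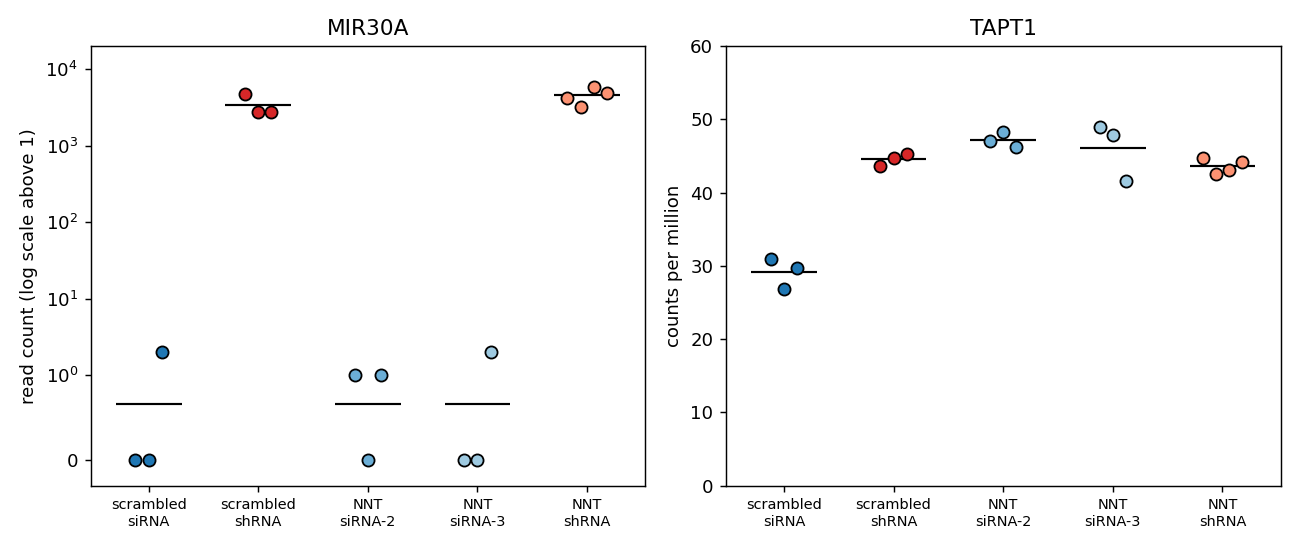
Reads at MIR30A (left, log scale above 1) and TAPT1 level in CPM (right) in each of the 16 libraries, with points for libraries and lines for group means. MIR30A reads run from 2708 to 5767 in the shRNA libraries and from 0 to 2 in the siRNA libraries, and TAPT1 is at 26.8 to 30.9 CPM in the scrambled siRNA libraries alone.

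TAPT1, which codes for a transmembrane protein linked to ciliary basal bodies and skeletal development, was low in the scrambled siRNA libraries. It stood at 30.9, 26.8 and 29.7 CPM in the siRNA controls and at 43.6, 44.8 and 45.3 CPM in the shRNA controls, with no overlap (log2 fold change -0.62, SE 0.09, edgeR adjusted p = 0.00854). In the knockdown libraries the range was 46.2 to 48.3 CPM for siRNA-2, for siRNA-3 it was 41.6 to 48.9 CPM and for NNT shRNA 42.6 to 44.7 CPM, near the shRNA controls. The same contrast there was 0.09 (adjusted p = 0.451). In a fit of all 16 libraries both contrasts differed by -0.71 (SE 0.11, edgeR adjusted p = 0.0412), the only call among 15201 genes (0.00658% called; 907 genes had an unadjusted p under 0.05, and DESeq2 called 11). That call was past the threshold in 2 of 16 fits with 1 library left out, where its adjusted p ran from 0.0175 to 0.334, whereas the difference between the controls was called in 6 of 6. With the library code as a block the difference between contrasts was -0.65 and did not pass (adjusted p = 0.21).

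Across all genes the controls differed in a small share. Of 14622 genes tested, 310 were called (edgeR quasi-likelihood test, adjusted p under 0.05), which is 2.12%: 143 were higher with siRNA (0.978%) and 167 lower (1.14%). The median size of a called difference was 0.592 on the log2 scale, and 61 called genes reached 2-fold, 9 of them higher and 52 lower. In all 310 the 3 siRNA libraries lay on one side of the 3 shRNA libraries, as they did in 24.7% of all genes tested. The count moved with single libraries: without the siRNA library 30-11 it was 959, and without the siRNA library 23-5 or 16-1 or the shRNA library 19-2, 18-3 or 24-2 it was 50, 111, 49, 57 and 95. All 310 genes kept their direction in each of these 6 fits.

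**Figure D2:**
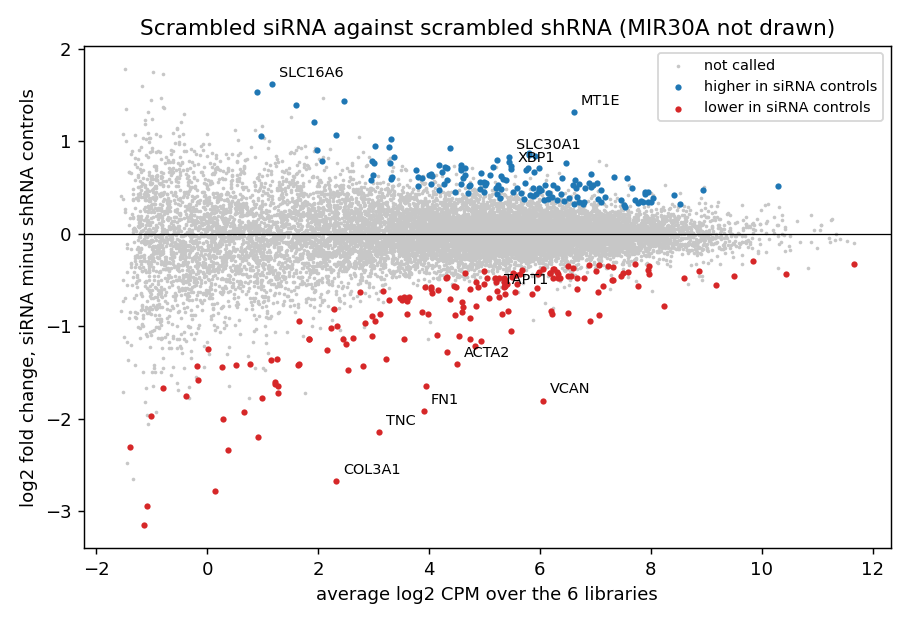
Log2 fold change between the scrambled controls (siRNA minus shRNA, y axis) against average log2 CPM (x axis) for each gene tested except MIR30A; colour marks the 143 genes called higher and the 167 called lower. Of the 61 called differences of at least 2-fold, 52 lie below 0.

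Several genes of the extracellular matrix and of the contractile cytoskeleton were lower with siRNA. Values in brackets after a gene are log2 fold changes, siRNA minus shRNA, of genes that passed the test unless said otherwise. Among 32 tested genes of matrix and adhesion, 4 were called lower and 0 higher, with a median log2 fold change of -0.0907, beside 2.12% called and a median of -0.00482 over all genes. This balance depended on the setting: with DESeq2, and with no low-count filter, 4 members were higher and 5 lower, and without the siRNA library 30-11 3 were higher and 4 lower. The median was 0.000213 without the shRNA library 18-3. Among 23 tested targets of YAP and SRF and actin genes, 6 were lower and 0 higher, with a median of -0.156, and 20 of the 23 lay below 0. Leaving out single libraries, 1 to 6 of them were lower, and 1 was higher without the siRNA library 30-11. The genes TNC and VCAN belong to neither list and are named as 2 of the 10 largest falls among called genes. For tenascin-C, a matrix glycoprotein, TNC stood at 1.91, 4.42 and 2.59 CPM in the siRNA controls and at 8.56, 16.4 and 15.7 CPM in the shRNA controls. The highest siRNA library lay below the lowest shRNA library (4.41-fold lower, log2 fold change -2.14, SE 0.30, edgeR adjusted p = 0.00688).

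Fibronectin behaved alike: FN1 stood at 3.95, 7.89 and 6.23 CPM in the siRNA controls and at 19.9, 22.2 and 27.1 CPM in the shRNA controls (3.78-fold lower, log2 fold change -1.92, SE 0.21, edgeR adjusted p = 0.00255). Versican, a large matrix proteoglycan, gave VCAN levels of 21, 24 and 42.6 CPM against 103, 114 and 85.5 CPM (log2 fold change -1.80, SE 0.21, edgeR adjusted p = 0.00303), with library 30-11 the highest of the siRNA controls. The fibrillar collagen gene COL3A1 was at 1.52, 0.706 and 1.74 CPM against 5.96, 12.5 and 5.89 CPM (log2 fold change -2.68, SE 0.37, edgeR adjusted p = 0.00642), and library 19-2 was the highest. All 4 of these genes stayed past the threshold when any single library was left out. The called members of the matrix list were FN1, COL3A1, COL5A1, which codes for a chain of type V collagen (log2 fold change -1.62, SE 0.31, edgeR adjusted p = 0.0233), and MMP2, a gelatinase (-0.72).

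ACTA2, the smooth muscle actin gene, was at 13.7, 12.5 and 10.2 CPM in the siRNA controls and at 25, 38.1 and 34.1 CPM in the shRNA controls (2.66-fold lower, log2 fold change -1.41, SE 0.16, edgeR adjusted p = 0.00255). Its groups did not overlap, and the call held without any single library. The YAP target CTGF was at 0.652, 0.553 and 0.598 CPM against 1.69, 2.55 and 2.7 CPM (log2 fold change -1.93, SE 0.29, edgeR adjusted p = 0.0092). THBS1, a matricellular protein and YAP target, fell by 1.78 on the log2 scale (edgeR adjusted p = 0.0201). The remaining called members were the tropomyosin gene TPM2 (-0.68), the calponin gene CNN2 (-0.58) and TGFB1I1, which codes for a focal adhesion protein (-0.60). With 1 library left out, CTGF was called in 4 of 6 fits and CNN2 in 1.

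Markers of fibroblasts moved in part with these genes. The list holds 10 genes, of which 4 passed the low-count filter and 1, COL3A1, was called lower, with a median of -0.67 over the 4. With no filter 3 were called lower. The summed level of the 10 was 37.5 to 51.1 CPM in the siRNA controls and 53.6 to 63.3 CPM in the shRNA controls, and FAP, which was not called, held a mean of 30.8 CPM and 34.4 CPM of it. COL1A1, also tested and not called, was level, at a mean of 11.7 CPM with siRNA and 11.6 CPM with shRNA (0.01). POSTN was at 0 in all 6 libraries, and PDGFRA, PDGFRB, LUM, DCN and THY1 were each at or below 0.608 CPM in every one. At these low levels several had fewer reads with siRNA, summed over 3 libraries: LUM had 2 against 29, THY1 5 against 48 and DCN 8 against 29, while PDGFRA had 21 against 18 and PDGFRB 10 against 12. These sums are not scaled for depth, and the siRNA controls held 74836827 gene counts in total against 101387954 in the shRNA controls. The log2 fold change of S100A4 was -1.17, which did not pass. In cell populations of this kind, fewer cells of a type and less RNA per cell cannot be told apart. The part of such cells in the result was not tested. Of the markers of endothelial, immune and epithelial cells, 2, 2 and 5 passed the filter and 0 were called, and of 9 tested chromaffin and neural markers 1 was, CHGB (-0.71), which codes for a granin of secretory vesicles.

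**Figure D3:**
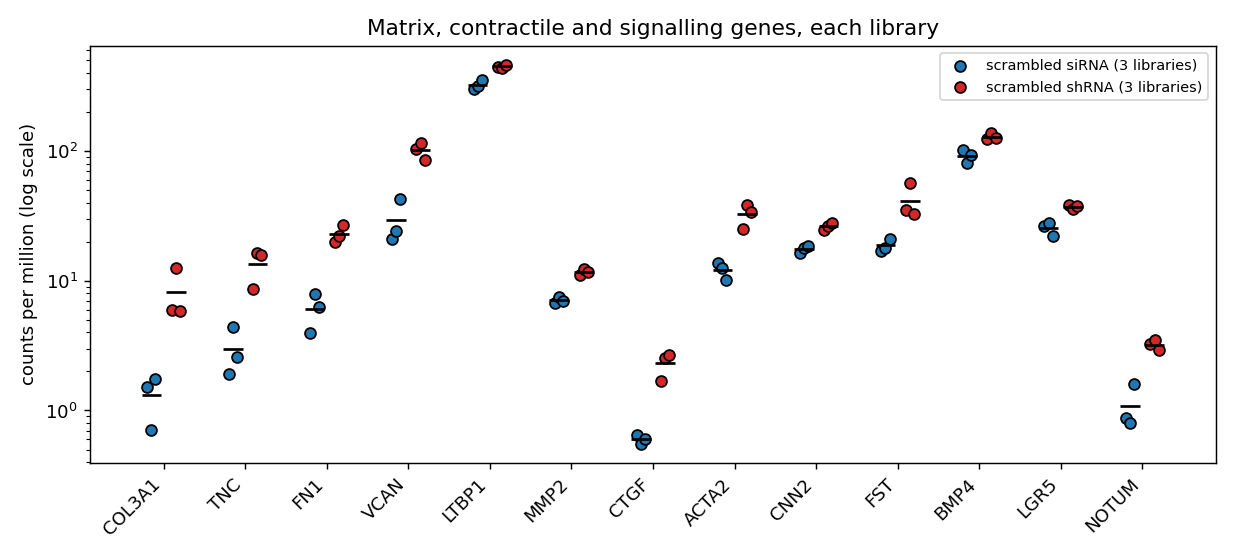
Level of 13 genes called lower with siRNA, in CPM on a log scale, for each of the 3 scrambled siRNA and 3 scrambled shRNA libraries, with lines for group means. In each gene the siRNA points lie below the shRNA points, and the distance is widest for COL3A1 and TNC.

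A few genes of signalling pathways were lower as well. Of 25 Wnt pathway genes, 3 were called lower and 0 higher (12%, beside 2.12% called over all genes), with a median of -0.129. The lipase gene NOTUM, which inactivates Wnt ligands, was at 0.869, 0.798 and 1.59 CPM against 3.25, 3.47 and 2.93 CPM (log2 fold change -1.61, SE 0.27, edgeR adjusted p = 0.0165), and the R-spondin receptor gene LGR5 at 26.3, 27.6 and 22.3 CPM against 38.1, 35.8 and 37.4 CPM (log2 fold change -0.55, SE 0.10, edgeR adjusted p = 0.0215). The third was the ligand gene BMP4 (-0.48), which that list holds. In the TGF-beta, activin and BMP list, 2 of 26 were lower, FST and LTBP1, and 1 higher (11.5% called), with a median of 0.0259. The higher gene was the co-receptor TGFBR3 (0.49, adjusted p = 0.00822), and LTBP1, which holds latent TGF-beta in the matrix, was lower (-0.48). FST, an activin-binding antagonist, lay at 17.1, 18 and 21.1 CPM against 35.3, 56.7 and 32.6 CPM (log2 fold change -1.16, SE 0.18, edgeR adjusted p = 0.0117). With 1 library left out, FST was called in 5 of 6 fits, TGFBR3 in 6, and NOTUM, LGR5 and BMP4 in 2 each.

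Other genes with large falls had varied roles. They were RGS5, a regulator of G protein signalling (-1.65), PLXNB3, a semaphorin receptor (-1.35), the adhesion G protein-coupled receptor gene ADGRG2 (-1.28) and KLHL4 (-1.22). Of these, RGS5 had 1 shRNA library apart: 13.8, 36.7 and 17.5 CPM, against 6.99, 5.96 and 8.97 CPM with siRNA. Among genes of low level, the largest falls were PEX5L (-3.15), ADGRG6 (-2.94) and the kinase gene SYK (-2.78). PEX5L was at 0.489, 0.605 and 0.836 CPM in the scrambled shRNA libraries and at 0.0335 to 0.0712 CPM, which is 1 or 2 reads each, in the NNT shRNA libraries. Whether the shRNA groups differ was not tested, and PEX5L was too low to be tested between the knockdown libraries. Its difference between contrasts was not called (edgeR adjusted p = 0.788). With 1 library left out, the control call of PEX5L held in 1 of 6 fits.

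Some genes that respond to metal ions were higher with siRNA. Of 8 tested genes in that list, 3 were called higher (37.5%, beside 2.12% called over all genes), with a median of 0.232. The metallothionein gene MT1E was at 90.2, 190.0 and 135 CPM in the siRNA controls and at 66.8, 37.4 and 62.5 CPM in the shRNA controls (2.48-fold higher, log2 fold change 1.31, SE 0.24, edgeR adjusted p = 0.0215). The metallothionein genes are close in sequence, so the division of reads among them is uncertain. MT1F was at 54.2, 89.9 and 71.8 CPM against 41.5, 35 and 41.1 CPM (log2 fold change 0.87, SE 0.15, edgeR adjusted p = 0.0181). SLC30A1, which exports zinc, was at 48.2, 65 and 52.1 CPM against 31.5, 30.5 and 30.7 CPM (log2 fold change 0.83, SE 0.11, edgeR adjusted p = 0.00641). The shRNA libraries were within 1 CPM of 30.9, and the call held without any single library, whereas MT1E was called in 3 of 6 such fits.

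The promoters of SLC30A1 and THBS1 are printed as those of 1 called gene each from the metal list and the YAP and SRF list, of which 3 of 8 and 6 of 23 tested members were called. Each runs from 250 bases before to 50 after the gene start, from RefSeq on GRCh38.p14, on the gene's strand. Capitals mark matches, on either strand, to the core of the metal response element (TGCACNC or TGCGCNC) in SLC30A1, at chr1:211579112-211579411 on the minus strand, and to the TEAD motif GGAATG in THBS1, at chr15:39580829-39581128 on the plus strand.
SLC30A1 promoter: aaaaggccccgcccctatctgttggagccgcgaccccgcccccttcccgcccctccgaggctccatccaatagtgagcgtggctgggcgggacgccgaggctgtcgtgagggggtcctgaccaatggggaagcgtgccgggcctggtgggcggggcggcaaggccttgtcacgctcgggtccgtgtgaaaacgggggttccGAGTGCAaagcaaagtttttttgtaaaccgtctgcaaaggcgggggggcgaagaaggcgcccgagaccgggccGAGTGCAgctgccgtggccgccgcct
THBS1 promoter: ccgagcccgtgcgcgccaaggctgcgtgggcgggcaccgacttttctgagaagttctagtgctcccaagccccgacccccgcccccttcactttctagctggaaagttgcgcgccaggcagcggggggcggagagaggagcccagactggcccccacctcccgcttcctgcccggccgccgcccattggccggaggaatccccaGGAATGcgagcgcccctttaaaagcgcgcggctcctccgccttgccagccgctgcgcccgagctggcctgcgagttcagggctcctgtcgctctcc
SLC30A1 had 2 matches and THBS1 had 1. Over 10696 promoters of genes tested, 37.8% held the metal core and 11.2% the TEAD motif. Of the 18 YAP, SRF and actin genes with a promoter in the table, 9 held the TEAD motif, and of the 5 metal genes 4 held the metal core. Among their called members these were 2 of 5 and 1 of 1. The same search for the ER stress response element by its consensus, on both strands, held by 0.15% of promoters of genes tested, found it in 6 of 18 promoters of the endoplasmic reticulum chaperone list and in 0 of its 5 called members. A match is a description of the letters only.

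Some chaperones and stress genes of the endoplasmic reticulum were higher with siRNA. Of 19 tested, 5 were called higher and 0 lower (26.3%, beside 2.12% called over all genes). Their median was 0.109, and 18 of 19 lay above 0. XBP1, a transcription factor of the unfolded protein response, was at 56.9, 47.8 and 58.8 CPM against 33.4, 36.4 and 30.6 CPM (log2 fold change 0.70, SE 0.10, edgeR adjusted p = 0.0092). The co-chaperone gene DNAJB9 was at 57.7, 44.8 and 38.4 CPM against 26.5, 29.2 and 25.3 CPM (log2 fold change 0.80, SE 0.14, edgeR adjusted p = 0.017), and SDF2L1 at 27.8, 34 and 31.1 CPM against 22.1, 16.7 and 17.8 CPM (log2 fold change 0.71, SE 0.13, edgeR adjusted p = 0.0193). The other called members were DNAJC3 (0.33) and EDEM1 (0.53), which acts in the disposal of misfolded proteins. Of 18 heat shock genes, cytosolic and mitochondrial, 3 were called lower and 0 higher (16.7%), with a median of -0.0634 and 5 above 0. The 3 were HSP90AA1 (-0.44), its co-chaperone CHORDC1 (-0.56) and DNAJA1 (-0.43). With 1 library left out, XBP1 was called in 5 of 6 fits, SDF2L1 in 3 and DNAJB9 in 2, and each of the 3 heat shock genes in 1. In the 16-library fit 0 heat shock genes were called.

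In the p53 response, 3 of 23 genes rose and 0 fell (13%, beside 2.12% called over all genes), with a median of 0.177. Leaving out single libraries, 0 to 6 of the 23 were called higher. BTG2, an antiproliferative gene, was at 19.1, 9.7 and 11 CPM against 6.58, 6.59 and 6.35 CPM (log2 fold change 1.02, SE 0.22, edgeR adjusted p = 0.0402), with library 16-1 the highest. TNFRSF10B, a death receptor, rose by 0.62 on the log2 scale and ZMAT3, an RNA-binding protein, by 0.49. SESN2 (0.58) was the 1 called gene of 30 in the ATF4 list (3.33%). GSR (0.39), glutathione reductase, and OSGIN1 (0.51) were the 2 of 29 NRF2 targets (6.9%). In the RNA interference list 1 of 20 was called (5%). It was DICER1, at 207, 288 and 183 CPM against 153, 133 and 159 CPM (log2 fold change 0.60, SE 0.14, edgeR adjusted p = 0.0495). With 1 library left out, BTG2 and TNFRSF10B were called in 2 of 6 fits and ZMAT3, SESN2, GSR and DICER1 in 1.

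**Figure D4:**
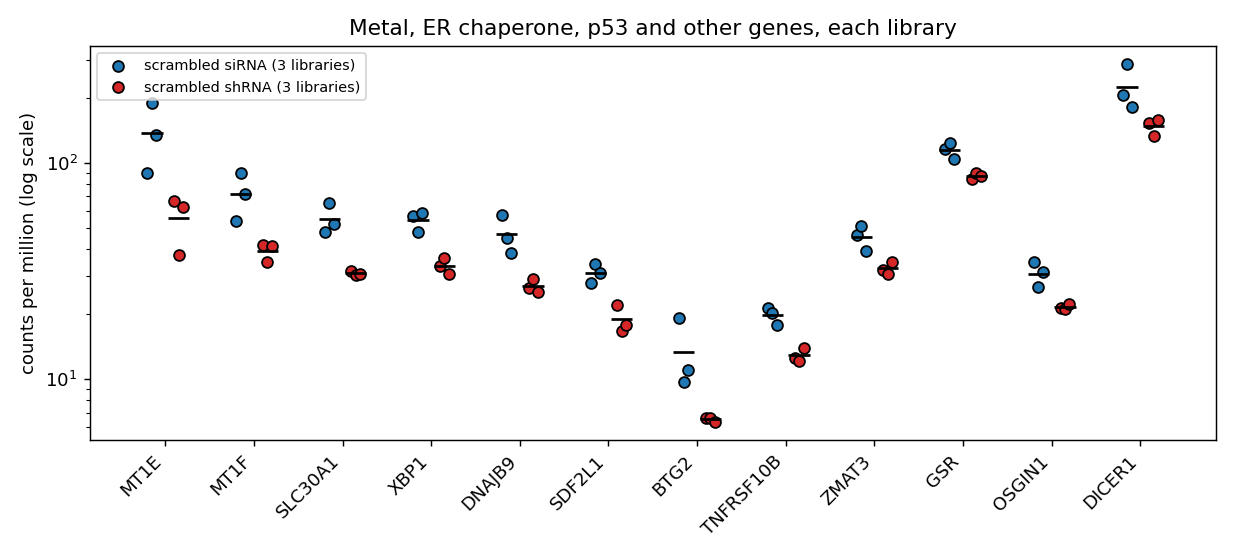
Level of 12 genes called higher with siRNA, in CPM on a log scale, for each of the 3 scrambled siRNA and 3 scrambled shRNA libraries, with lines for group means. In each gene the siRNA points lie above the shRNA points, and the groups are farthest apart for MT1E and BTG2.

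Further genes that rose were AGPAT9 (0.95), SLC46A3 (0.93), TUBA4A, an alpha-tubulin (0.92), LCOR, a nuclear receptor corepressor (0.85), ZNF280B (0.84) and KBTBD11 (0.83). Among genes of low level, SLC16A6, a monocarboxylate transporter family member, was at 2.74, 3.9 and 3.49 CPM against 1.4, 0.923 and 0.912 CPM (log2 fold change 1.61, SE 0.25, edgeR adjusted p = 0.0104). ABCG1, a cholesterol exporter, was at 8.78, 5.07 and 11 CPM against 2.71, 3.82 and 2.51 CPM (log2 fold change 1.44, SE 0.27, edgeR adjusted p = 0.0217), and the ammonium transporter gene RHBG rose by 1.53. Single members of other lists were called: GAA, a lysosomal glucosidase (0.46), the cyclin gene CCNA2 (0.36), PDK1 (0.47) and SLC2A3 (0.49) higher, and E2F2 (-0.48), PKM (-0.33) and RPSA (-0.30) lower. With 1 library left out, AGPAT9, TUBA4A, LCOR, KBTBD11, RHBG, CCNA2, PDK1, SLC2A3 and PKM were each called in 1 of 6 fits and RPSA in 0. ABCG1, GAA and E2F2 were called in 2 each, SLC46A3 in 3, SLC16A6 in 4 and ZNF280B in 6.

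Genes that sense foreign RNA or answer interferon did not pass the test in most cases. Of 12 tested sensors of double-stranded RNA, 0 were called, beside 2.12% called over all genes, with a median of 0.0391 for the sensors. Of 28 interferon response genes, 1 was called, STAT2, a signal transducer of type I interferon, which was lower: 65, 55.5 and 64.7 CPM against 87.5, 74.8 and 84.6 CPM (log2 fold change -0.42, SE 0.09, edgeR adjusted p = 0.0435), called in 1 of 6 fits with 1 library left out. The median of that list was 0.244, with 24 of 28 above 0. For 16 antigen presentation genes the median was 0.258, with 15 above 0 and 0 called. This count depended on the setting, and 3 of the 16 were called higher with DESeq2 and with no low-count filter. With robust dispersion, in the 16-library fit and without the siRNA library 30-11 it was 1, and 0 were lower in any setting. Of 8 NF-kB and inflammatory genes, 0 were called, with a median of -0.0362.

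The steroid programme of the line was also not called different. Of 22 steroidogenic genes, 0 passed, with a median of 0.105, and of 19 adrenocortical factors and markers, 0 passed. The cholesterol side-chain cleavage enzyme gene CYP11A1 came closest of 6 chosen genes, at 396, 320.0 and 381 CPM against 294, 277 and 307 CPM (log2 fold change 0.32, SE 0.09, edgeR adjusted p = 0.0839), without overlap. CYP17A1 was at 170.4, 130.4 and 224 CPM against 182, 374 and 188 CPM (log2 fold change -0.51, SE 0.25, edgeR adjusted p = 0.283), and HSD3B2 at 25.8, 13.7 and 40.5 CPM against 13.9, 29.8 and 10.8 CPM (log2 fold change 0.54, SE 0.38, edgeR adjusted p = 0.466). Their groups overlapped, and library 19-2 was the highest shRNA library in both. The mitochondrial ribosome (0 of 77, median -0.0881) and complex I (0 of 38, median -0.01) gave no call, nor did cholesterol synthesis (0 of 23, median 0.118). The 116 tested transcripts that lack a poly(A) tail, kept as a sign of RNA selection, had a median of -0.263 with 0 called. They summed to 344 to 498 CPM with siRNA and 469 to 527 CPM with shRNA, and 96 of the 116 lay below 0. Without the siRNA library 30-11, 6 of 139 were called lower. Whether RNA selection differed between the groups, and its part in the other differences, was not tested.

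The second contrast asked whether the differences recur where NNT was knocked down. Among 15017 genes tested, 586 (3.9%) were called between the NNT siRNA and NNT shRNA libraries, 279 higher and 307 lower, though NNT itself was at 31.8 to 233 CPM against 28.7 to 34.6 CPM there, so the knockdown was not matched. Of the 310 genes called between the controls, 309 were tested, 293 had the same sign and 124 were called the same way, with 0 called the opposite way. The same sign was held by 132 of 143 higher genes, where 47.8% of all genes tested lay above 0. Among the lower genes it was 161 of 166, where 52.2% lay below 0. These 124 are 40% of the control calls and 21.2% of the knockdown calls. Both contrasts share no library but do share codes within a delivery system. Of 7 pairs of libraries with the same code, 5 had correlated deviations above 0.1, and each of these 5 joins a control and a knockdown library. The pair of code 11-1 (-0.0649) lies within the knockdown contrast and does not bear on this. The contrasts may therefore not be independent, and the part of shared deviations in this overlap was not tested. By direction, 48 of 143 higher genes (33.6%) recurred where 1.86% of all genes were called higher, and 76 of 167 lower genes (45.5% of them) where 2.04% were called lower. The median difference of the higher genes was 0.537 between the controls and 0.332 in the knockdown libraries, and of the lower genes -0.681 and -0.447. These genes were chosen by passing the threshold between the controls, which enlarges the control medians, so the sizes cannot be compared.

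Among the matrix and contractile genes, the knockdown contrast gave -2.88 for COL3A1, -1.30 for TNC, -1.17 for VCAN, -0.72 for FN1 and -0.96 for ACTA2, all called. LTBP1 did not pass there (-0.02, adjusted p = 0.915). Of the higher genes, MT1E (1.00), SLC30A1 (0.62), DNAJB9 (0.69), XBP1 (0.46) and DICER1 (0.90) were called, while ABCG1 (0.33) and ZMAT3 (0.02) did not pass. Although these were called, the knockdown siRNA and shRNA groups overlapped for FN1, VCAN, MT1E, SLC30A1 and XBP1. Mean SLC30A1 was 36.7 CPM with siRNA-2 and 61.8 CPM with siRNA-3, against 30.9 CPM with NNT shRNA. Mean MT1E was 81 CPM and 169 CPM against 58.5 CPM, so both averages rest largely on siRNA-3. Whether LTBP1, ABCG1 and ZMAT3 differ between contrasts was tested in the 16-library fit, in which none of them was called (edgeR adjusted p = 0.778 for LTBP1).

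**Figure D5:**
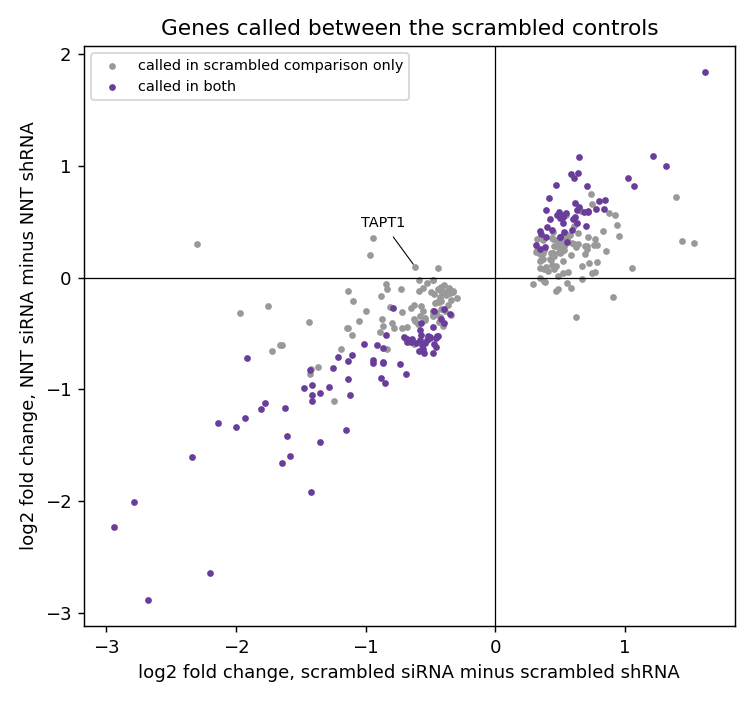
Log2 fold change (siRNA minus shRNA) between the scrambled controls (x axis) and between the NNT knockdown libraries (y axis) for the genes called between the controls and tested in both, without MIR30A; purple marks genes called in both. Counting MIR30A, 293 of 309 genes share a sign, and TAPT1 lies above 0 on the y axis. Of all genes tested between the knockdown libraries, 47.8% lay above 0 and 52.2% below.

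Genes called whichever library was left out numbered 33, 6 higher and 27 lower, and were singled out after their values were seen. Of them, 32 had the same sign between the knockdown libraries and 23 were called there the same way. Beside genes named above, they include CALCR, the calcitonin receptor gene (-2.20), MYLK, the myosin light chain kinase gene (-1.25), PDE5A, a cyclic GMP phosphodiesterase gene (-1.11), DACT1, a Wnt pathway modulator (-0.95), SOX4, a transcription factor (-0.86), and SFRP1, a secreted Wnt antagonist (-0.83). MSRB3, a methionine sulfoxide reductase gene, was at a mean of 218 CPM with siRNA and 375 CPM with shRNA. The higher genes of this set were ZNF280B, SLC30A1, MYO1D, an unconventional myosin (0.69), EMC10, a subunit of the membrane protein insertion complex (0.61), GALC, a lysosomal galactosidase (0.55), and TGFBR3.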

How the data were processed

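Stranded mRNA libraries were prepared from NCI-H295R RNA, per the labels' protocols. The deposited values are raw whole-number counts per gene, 1 file per lane, with 26364 gene rows. The submitters' processing notes name STAR 2.4.2a, HTSeq 0.6.1p1, DESeq2 1.14.1 and the build hg19. Annotation and strand setting were not given in the sources used, so overlapping genes are uncertain.

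The 4 lanes of a library were summed: chi-square per degree of freedom was 1.01 to 1.03 between lanes and 8.76 to 19.7 between libraries of 1 group. Rows of no gene (no feature 11.3 to 15.2%, several alignments 7.47 to 8.17%, ambiguous 1.05 to 1.19%) were left out. Whether libraries are separate cultures is not stated, and p-values then reflect library spread, which may be technical. The 6 control libraries entered edgeR 4.0.16 (R 4.3.3): TMM, a minimum count of 10, quasi-likelihood tests and Benjamini-Hochberg adjustment at 0.05. The coefficient of biological variation came to 0.104, with 4 residual degrees of freedom. The 10 knockdown libraries were fitted alike, with both siRNAs averaged, and the difference of contrasts in all 16. CPM used TMM totals of all 16. Alternatives were another normalization, 2 other filters, DESeq2 1.42.0, lane 1 only, robust dispersion, the 16-library fit and leaving out each library. Tests were checked on simulated data.

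Members and 37 lists were chosen with earlier results of these data known. Named genes were NNT, MIR30A, TAPT1 and 6 steroidogenic genes, the 10 highest and 10 lowest called fold changes of genes averaging 3 log2 CPM or more, 3 and 3 of lower genes, and up to 3 called members per list. Other genes were named after their values were seen.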

Additional observations from a re-analysis of the deposited data

Results flagged for a closer look

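TAPT1 was flagged as the only gene called in the 16-library fit for the scrambled contrast minus the knockdown contrast, -0.71 on the log2 scale. That call held in 2 of 16 fits with 1 library left out. It did not hold with the library code as a block. Among the NNT shRNA libraries, CYP11A1 in library 2-3 stood apart from the other 3, at 249 CPM against 327 to 342 CPM. Among the NNT shRNA libraries, TUBA4A in library 2-3 stood apart from the other 3, at 20.7 CPM against 14.5 to 15.3 CPM. Among the NNT shRNA libraries, STAT2 in library 19-2 stood apart from the other 3, at 70.4 CPM against 80.2 to 80.5 CPM. Among the NNT shRNA libraries, CCNA2 in library 2-3 stood apart from the other 3, at 270.3 CPM against 181 to 188 CPM. These are 4 of 64 named genes examined in that group, the only group of 4 libraries, and chance alone marks about 1 in 20.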

How the results depend on the processing

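Among named genes in the control comparison, settings that kept every library gave 390 values with the call and direction unchanged, 44 that lost and 2 that gained the call, and none that changed direction once called. With 1 library left out, 200 were unchanged and 183 lost the call; the cause was not tested. The 310 control calls became 808 with no low-count filter and 855 with DESeq2. DESeq2 size factors gave 314, the stricter filter 251, lane 1 209, robust dispersion 338 and the 16-library fit 264, with 104 higher and 160 lower. Leaving out 1 library gave 49 to 959. The 586 knockdown calls became 1378 with DESeq2, 1107 in the 16-library fit, 1480 for siRNA-3 alone and 226 for siRNA-2 alone, and 92 to 720 without 1 library. The single call in the difference of contrasts became 0 with no filter and with lane 1, 11 with DESeq2 and 0 to 2 without 1 library. Called list members, 45 at first, numbered 87 with no filter, 82 with DESeq2, 27 with lane 1 and 9 to 95 without 1 library. These list counts outside the scaling and the 16-library fit were chosen after seeing the data.

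No paired analysis was possible because siRNA and shRNA groups share no code, for either contrast. The difference of contrasts can be fitted with the code as a replicate block, added after seeing the data. It gave 1 call, a gene other than TAPT1, whose difference was -0.65 (adjusted p = 0.21). Of 7 pairs with the same code, 5 had correlated deviations above 0.1 (range -0.0649 to 0.585) and 2 did not. Whether the codes pair libraries is not settled by these values, and the labels do not say.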
